A study of Mus musculus with 6 samples.

Results

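Leukocyte miRNAs were examined in mouse liver after chronic carbon tetrachloride (CCl4) injury. They were 8 mature miRNAs chosen by name, mmu-miR-142-3p, mmu-miR-142-5p, mmu-miR-223-3p, mmu-miR-150-5p, mmu-miR-342-3p, mmu-miR-146a-5p, mmu-miR-146b-5p and mmu-miR-155-5p, written without the prefix from here on, and all 8 had probes among the 1247 mouse miRNAs of the array. Livers came from 6 male C57BL/6 mice with no transgene or mutant allele named, which were 7 weeks old at the first intraperitoneal injection and were then injected 2 times weekly over 10 weeks. The CCl4 group (n = 3) received 0.6 mL of CCl4, a hepatotoxic solvent, per kg of body weight in corn oil, and the corn oil group (n = 3) received the oil alone, in equal volume. Each liver RNA was labeled with Cy3 and hybridized to its own single-color Agilent array. The labels number the liver tissues of each group and name no pooling, so the replicates were taken as separate mice. RNA came from whole liver, in which more cells of one type and more RNA per cell cannot be told apart.

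A miRNA guides the silencing complex to messenger RNAs through its seed, the bases near its 5′ end that pair with the target. The miRNAs of this group are best known from blood cells. miR-142 is made in nearly all cells of the blood lineage, miR-223 in neutrophils and other myeloid cells, and miR-150 in mature lymphocytes. miR-342 is found in lymphoid and also in myeloid cells. miR-146a, miR-146b and miR-155 are induced when inflammatory receptors activate NF-kB in leukocytes, and miR-146a in turn dampens that pathway. In injured liver, leukocytes include the resident macrophages, or Kupffer cells, and the cells that enter from the blood.

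The mature sequences show which of these miRNAs could share targets and which could be confused by a probe. Sequences of 7 of the 8 were taken from RefSeq (GRCm38.p6), and miR-150-5p is given by name only. They are written 5′ to 3′ with the seed, bases 2 to 8, in capitals, and grouped by role.
miR-142-3p: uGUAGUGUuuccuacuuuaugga
miR-142-5p: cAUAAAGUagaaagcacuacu
miR-223-3p: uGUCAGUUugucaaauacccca
miR-342-3p: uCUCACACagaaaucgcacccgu
miR-146a-5p: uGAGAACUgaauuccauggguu
miR-146b-5p: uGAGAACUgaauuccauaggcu
miR-155-5p: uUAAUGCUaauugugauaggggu

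Only miR-146a-5p and miR-146b-5p had a common seed, and the other printed seeds occurred in no other mature mouse miRNA of that table. These miR-146 sequences were identical at 20 of 22 bases. They differed by G18A and U21C, with positions counted from 1 at the 5′ end and the base of miR-146a-5p first, so cross-hybridization between their probes was possible and was not tested. Both miR-142 arms come from a single hairpin, which is shown here because their signals are compared later. In it the capitals mark the mature arms, the 5p arm first.
Mir142 hairpin: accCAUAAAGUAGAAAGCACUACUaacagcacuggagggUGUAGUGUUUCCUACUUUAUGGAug

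In GRCm38.p6, the Mir142 hairpin lies on the plus strand at chr11:87756864-87756927 and overlaps Mir142b on the other strand. The mature miR-223-3p lies at chrX:96242884-96242905 within F630028O10Rik, and miR-342-3p at chr12:108658680-108658702 within Evl, an actin regulator. miR-155-5p lies at chr16:84714143-84714165 within its host transcript Mir155hg. miR-146a-5p lies at chr11:43374435-43374456 on the minus strand, outside any other annotated gene, and miR-146b-5p at chr19:46342790-46342811 within Gm36493. Apart from the miR-142 arms, each of the 8 miRNAs has a hairpin of its own.

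Values are total signals, which are background-subtracted intensities in arbitrary units without normalization between arrays, unless another scale is named. The software reported 186 to 193 detected miRNAs per corn oil liver, and 245, 227 and 334 for CCl4 replicates 1, 2 and 3. CCl4 replicate 3 stood apart. Its rank correlation over the 166 miRNAs detected on all 6 arrays was 0.860 and 0.856 with the other CCl4 arrays, which correlated with each other at 0.979. Results that rest on this array are therefore given with and without it. Since the CCl4 livers occupied row 1 and the corn oil livers row 2 of the single slide, slide row and treatment cannot be told apart.

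All 8 leukocyte miRNAs had higher probe signals on every CCl4 array than on any corn oil array before normalization, as did 24.5% of the 1247 miRNAs and 18.7% of the 1081 that were not detected on all 6 arrays. For miR-142-3p, miR-223-3p and miR-342-3p the ratio of group means was between 4.11 and 5.85, and for miR-146a-5p it was 2.54. Most of the other miRNAs detected on all 6 arrays were also brighter in the CCl4 group. Summed over detected miRNAs, the signal was 167864.6 to 177197.6 on the corn oil arrays. It was 177350.5, 174365.3 and 316412.8 on CCl4 replicates 1, 2 and 3. The median miRNA of the 166 was 0.99 higher in the CCl4 group on the unnormalized log2 scale, or 0.45 without CCl4 replicate 3, and 63.3% of the 166 miRNAs had CCl4 values all above the corn oil values, a share against which the 4 members among them are to be read. Of the 8 leukocyte miRNAs, 4 were detected on all 6 arrays and could be tested after normalization. A further 3 were detected in every CCl4-treated liver but in only 1 or none of the controls, and detection in all CCl4-treated livers but not in all controls held for 3.29% of all miRNAs of the array.

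**Figure D1:**
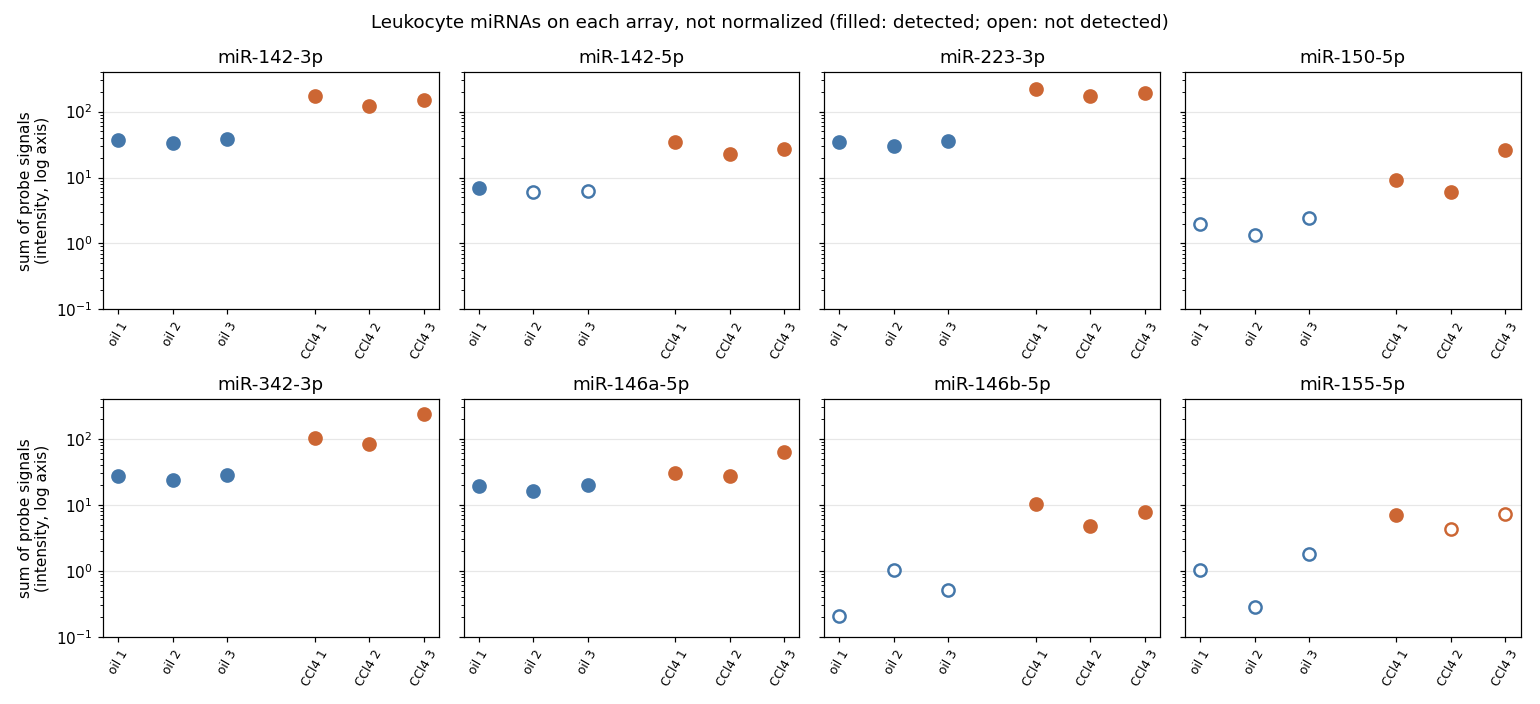
Signal of each leukocyte miRNA on each of the 6 arrays, as the sum of its probe signals (unnormalized intensity, log axis), with blue points for corn oil, orange points for CCl4 and open points where the software did not detect the miRNA. In every panel the 3 CCl4 points lie above the 3 corn oil points, and in the corn oil group miR-150-5p, miR-146b-5p and miR-155-5p are open on all 3 arrays.

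miR-142-3p, the blood-lineage miRNA, had total signals of 36.8, 33.7 and 38.0 in the corn oil livers and 174, 121 and 150 in the CCl4-treated livers. The groups were far apart, with the lowest CCl4 array 3.19 times the highest corn oil array. After quantile normalization, which gives all arrays the same distribution of signals, the separation was lost. Differences were tested with limma over the 166 miRNAs, and a call needed both a Benjamini-Hochberg adjusted p below 0.05 and more than a 2-fold change. The normalized log2 signals were 5.83, 5.92 and 6.02 in the corn oil group and 7.14, 6.61 and 5.59 in the CCl4 group. CCl4 replicate 3 now lay below all corn oil arrays. The log2 fold change was 0.52 (SE 0.41, limma adjusted p = 0.429), with means of 5.92 ± 0.09 and 6.45 ± 0.79 (SD, n = 3 per group). Without CCl4 replicate 3 it was 0.97 (SE 0.18, limma adjusted p = 0.019), just under 2-fold.

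miR-142-5p, the other arm of the hairpin printed above, was dim. The software detected it on 1 of 3 corn oil arrays, with a total signal of 3.71, and on all CCl4 arrays, with 34.0, 22.7 and 27.1. Adding all probe signals, detected or not, gave 6.88, 6.06 and 6.15 on the corn oil arrays and the same values as the totals on the CCl4 arrays. The groups did not overlap on these sums, as was the case for the 3p arm. In the corn oil group no more than 2.5% of its 40 spots stood well above background, so any ratio rests on corn oil signals near background. After scaling every array to the 75th percentile of the 166 miRNAs, its measured signal was 1.95-fold higher in the CCl4 group. Without CCl4 replicate 3 it was 2.81-fold higher. No fit is given for it or for the other 3 dim members, because they could enter one only through their detection in the CCl4 group.

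miR-223-3p, the myeloid member, had the highest ratio of group means among the 4 tested members. Its total signals were 34.2, 30.1 and 35.8 in the corn oil livers and 223, 170 and 191 in the CCl4-treated livers, a ratio of means of 5.85 (5.90 without CCl4 replicate 3). The lowest CCl4 array was 4.76 times the highest corn oil array. Its 2 probes gave unnormalized log2 changes of 2.41 and 2.59. After quantile normalization the values were 5.72, 5.65 and 5.92 in the corn oil group and 7.48, 7.53 and 5.83 in the CCl4 group. The first 2 CCl4 livers were thus well above the controls, whereas replicate 3 lay inside the corn oil range. The log2 fold change was 1.18 (SE 0.50, limma adjusted p = 0.181) with all arrays. When CCl4 replicate 3 was left out it was 1.75 (SE 0.10, limma adjusted p = 0.0018), and miR-223-3p was called upregulated.

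miR-342-3p, found in lymphoid and myeloid cells, had the smallest spread among CCl4-treated livers after quantile normalization, but the largest of the 4 tested members before it. Its total signals were 26.9, 23.8 and 28.6 in the corn oil livers and 102, 83.0 and 236 in the CCl4-treated livers. In contrast to miR-142-3p and miR-223-3p, its unnormalized signal was highest on CCl4 replicate 3, and the ratio of means was 5.32, or 3.51 without that array. After quantile normalization the corn oil values were 5.42, 5.27 and 5.48 and the CCl4 values 6.25, 6.30 and 6.17. The groups did not overlap, as for 14.5% of the 166 miRNAs with all CCl4 values higher, and both were tight, at 5.39 ± 0.11 and 6.24 ± 0.07 (SD, n = 3 per group). The log2 fold change was 0.85 (SE 0.13, limma adjusted p = 0.014), which passed the p threshold but not the 2-fold threshold. Leaving out CCl4 replicate 3 gave 0.87 (limma adjusted p = 0.0026). With CCl4 replicate 2 left out the adjusted p was 0.036, but without CCl4 replicate 1 or any 1 of the corn oil arrays it was between 0.061 and 0.086, above the threshold, at changes of 0.81 to 0.91. After 75th percentile scaling the change was 1.11 (adjusted p = 0.016) and miR-342-3p was called, as were 6.63% of the 166 miRNAs in the higher direction. In the deposited normalized values the change was 1.18 (adjusted p = 0.0033), and it was called there too, beside 6.31%.

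miR-150-5p, the lymphocyte member, was not detected on any corn oil array. On the CCl4 arrays its total signals were 7.37, 4.99 and 26.2. The highest of these came from replicate 3, as for miR-342-3p. Over 50% of the spots of one probe were well above background on 2 of the 3 CCl4 arrays. With 75th percentile scaling it was at least 1.02-fold higher in the CCl4 group, and no fold could be given without CCl4 replicate 3.

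miR-146a-5p, the NF-kB-induced regulator of inflammatory signaling, differed little once arrays were scaled. Its total signals were 16.3, 13.9 and 16.9 in the corn oil livers and 30.3, 27.3 and 62.2 in the CCl4-treated livers. The totals cover unlike sets of probes. On the corn oil arrays only 1 of its 2 probes was detected and counted, whereas both were counted on the CCl4 arrays. With all probe signals summed, the ratio of means was 2.18 rather than 2.54, and 1.57 without CCl4 replicate 3. The quantile-normalized values were 4.64, 4.47 and 4.63 in the corn oil group and 4.53, 4.81 and 4.57 in the CCl4 group. The groups overlapped, with a log2 fold change of 0.06 (SE 0.14, limma adjusted p = 0.811) and a 95% confidence interval from -0.30 to 0.42. The sign of this change was not settled, since it was -0.12 with all probe signals summed and negative in 9 of the 19 alternatives tried.

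miR-146b-5p, which has the same seed, was not detected on any corn oil array, where its probe signals summed to 0.208, 1.03 and 0.504. It was detected on the CCl4 arrays at 8.74, 4.31 and 6.26. Only 1 CCl4 array had over 50% of a probe's spots well above background. With 75th percentile scaling the bound lay under 1 and no fold is given. miR-155-5p, a driver of inflammatory activation in macrophages and lymphocytes, was detected least often. The software detected it on CCl4 replicate 1, at 5.34, and on no other array, and no array had over 50% of a probe's spots well above background. Its probe signals summed to 1.01, 0.278 and 1.82 in the corn oil livers and to 6.89, 4.34 and 7.15 in the CCl4-treated livers. Detection on all CCl4 arrays and no corn oil array, the pattern of miR-150-5p and miR-146b-5p, was shown by 1.76% of all miRNAs of the array.

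**Figure D2:**
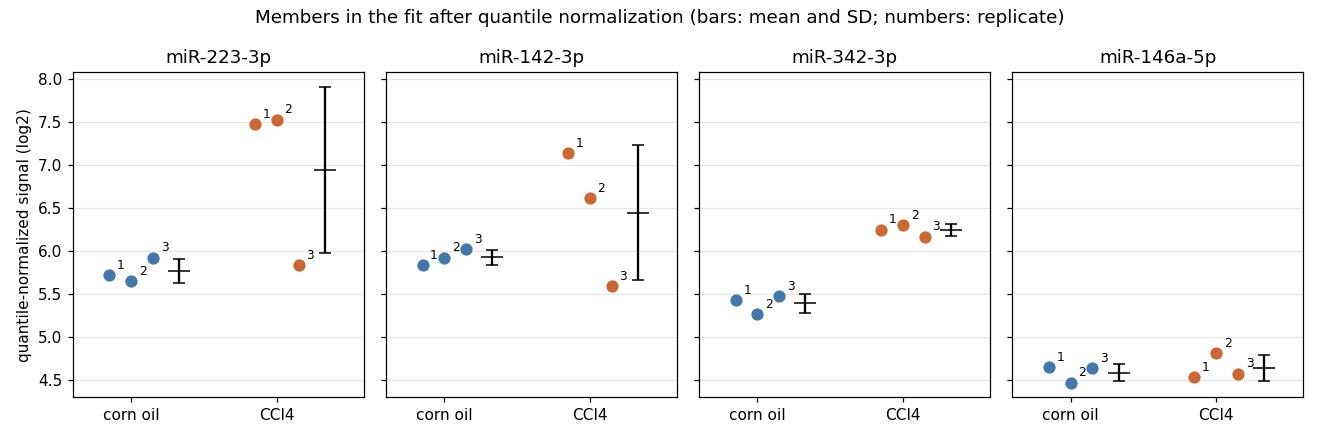
Quantile-normalized log2 total signal of the 4 leukocyte miRNAs detected on all 6 arrays, with 1 point per liver numbered by replicate and bars for mean and SD (n = 3 per group). The CCl4 points of miR-342-3p lie together between 6.17 and 6.30, whereas for miR-223-3p and miR-142-3p replicate 3 lies apart from the other CCl4 livers at 5.83 and 5.59.

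Of the 4 tested members, limma called 0 with all arrays, beside 7.23% of the 166 miRNAs called higher. At the adjusted p alone 1 of 4 passed, miR-342-3p, beside 7.83% of the 166. The same 1 of 4 passed an unadjusted p under 0.05, beside 28.9% of the 166. The median log2 change of the 4 members was 0.69, and that of the 166 miRNAs was -0.14. Without CCl4 replicate 3, limma called 1 of 4, miR-223-3p, beside 9.64% called higher, and 3 of 4 passed the adjusted p beside 18.7%. The median was then 0.92, and -0.12 over the 166 miRNAs.

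Because the background moved with the scaling, each change was also set against the median of the 166 miRNAs. Without normalization 3 of the 4 members were called, miR-146a-5p being the other, beside 10.8% of the 166 miRNAs. On the relative scale the log2 change of miR-223-3p was 1.33 after quantile normalization and 1.55 without normalization. For miR-342-3p the corresponding values were 0.99 and 1.27. The value of miR-142-3p was 0.67 after quantile normalization and 1.03 without it. For miR-146a-5p the values were 0.20 and 0.25, the smallest of the 4 members. Leaving out CCl4 replicate 3 gave 1.87 and 2.10 for miR-223-3p, 1.09 and 1.56 for miR-142-3p, 0.99 and 1.36 for miR-342-3p and 0.21 and 0.42 for miR-146a-5p. Without CCl4 replicate 3 and with 75th percentile scaling, miR-223-3p, miR-142-3p and miR-342-3p were all called, at log2 changes of 1.91, 1.37 and 1.17, also beside 10.8% called higher. In that setting the change of miR-146a-5p was 0.23 (limma adjusted p = 0.133).

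**Figure D3:**
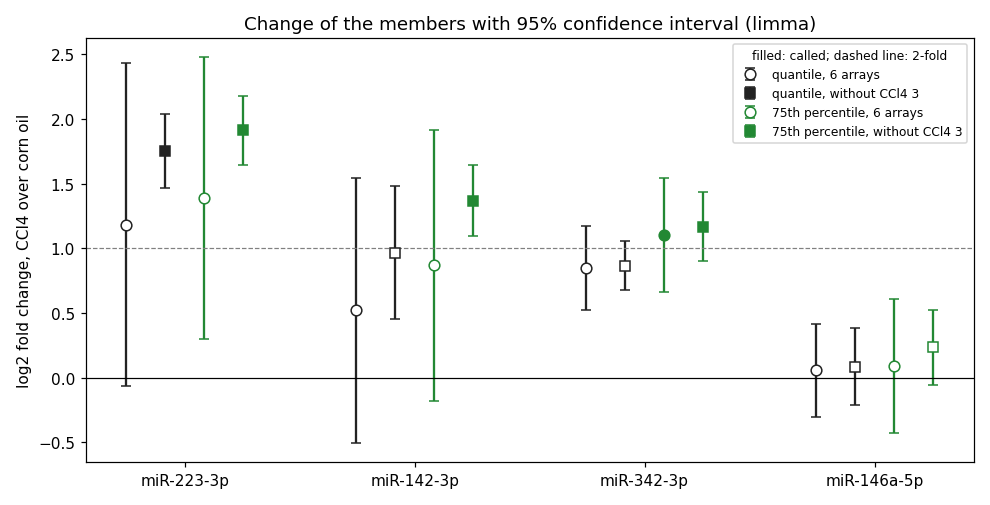
Log2 fold change, CCl4 over corn oil, of the 4 tested members with 95% confidence intervals from limma, under quantile normalization (black) and 75th percentile scaling (green), with all 6 arrays (circles) and without CCl4 replicate 3 (squares). Filled symbols are called and the dashed line marks 2-fold; the interval of miR-223-3p narrows from between -0.06 and 2.43 to between 1.47 and 2.04 when CCl4 replicate 3 is left out under quantile normalization.

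To ask whether the members moved equally, ratios between them were taken within each array, which needs no scaling between arrays. There were 6 pairs among the 4 tested members. With 3 arrays against 3 the two-sided exact permutation p cannot go below 0.1, so none could pass 0.05. Such ratios were not taken for other miRNAs, so a lack of overlap has no share over all miRNAs beside it. The log2 ratio of miR-223-3p to miR-142-3p was -0.11, -0.16 and -0.08 in the corn oil livers and 0.36, 0.49 and 0.35 in the CCl4-treated livers. All 3 CCl4 livers lay above all 3 controls, and the difference of 0.52 was 0.54 without CCl4 replicate 3 (exact permutation p = 0.1, adjusted over the 6 pairs 0.15). The myeloid miRNA thus had the larger unnormalized increase of the pair in every CCl4 liver, replicate 3 included.

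Against miR-342-3p, the same myeloid miRNA showed no such order. The log2 ratio of miR-223-3p to miR-342-3p was 0.34, 0.34 and 0.33 in the corn oil livers and 1.12, 1.04 and -0.30 in the CCl4-treated livers. CCl4 replicates 1 and 2 were above the controls and replicate 3 was below them, and the difference was 0.28 (exact permutation p = 0.4, adjusted 0.48), or 0.74 without replicate 3. The ratio of miR-142-3p to miR-342-3p behaved alike, at 0.45, 0.50 and 0.41 in the corn oil livers and 0.77, 0.54 and -0.65 in the CCl4-treated livers. Its difference was -0.23 (exact permutation p = 1) and turned to 0.20 without replicate 3.

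Against miR-146a-5p, the ratios of the other 3 tested members were all higher in the CCl4 group. The difference in log2 ratio was 1.30 for miR-223-3p, 0.78 for miR-142-3p and 1.01 for miR-342-3p, each without overlap between the groups (exact permutation p = 0.1, adjusted 0.15). How many other miRNAs separate in this way against miR-146a-5p was not tested. Without CCl4 replicate 3 the differences were 1.68, 1.13 and 0.93, and without CCl4 replicate 1 that for miR-142-3p was 0.51. With all probe signals summed the differences were 1.52, 1.00 and 1.23, or 1.90, 1.35 and 1.15 without CCl4 replicate 3. For miR-223-3p and miR-150-5p, the members best known from myeloid cells and from lymphocytes, a ratio existed only on the CCl4 arrays. Its log2 values there were 4.92, 5.09 and 2.87, lowest on replicate 3, and the groups could not be compared because miR-150-5p was undetected in the corn oil group.

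**Figure D4:**
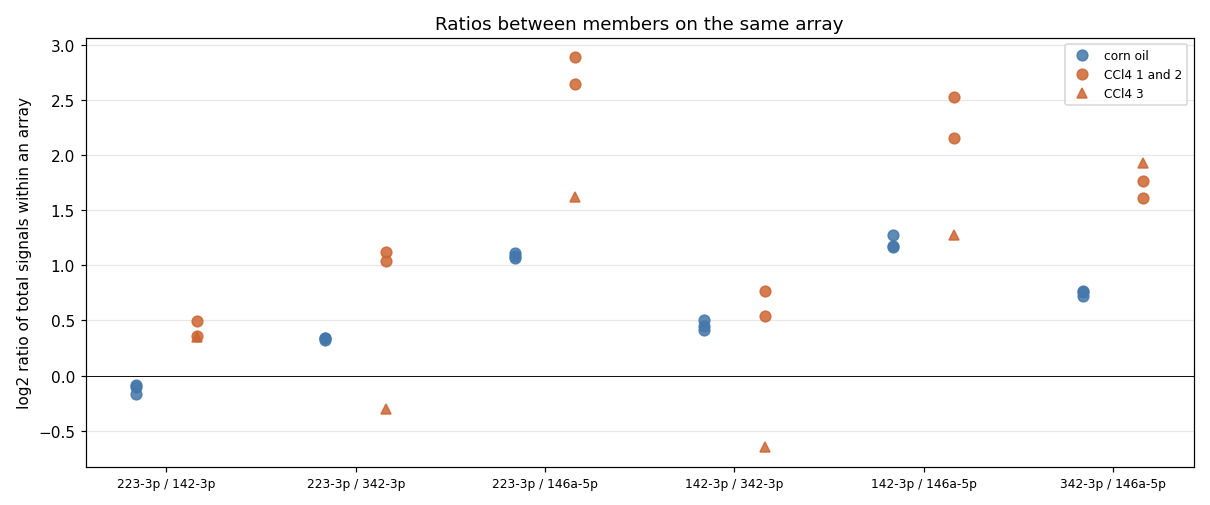
Log2 ratio of the total signals of each of the 6 pairs of tested members within an array, with blue circles for corn oil, orange circles for CCl4 replicates 1 and 2 and triangles for CCl4 replicate 3. The corn oil arrays form tight clusters in all pairs, and the triangle lies below the corn oil points for the 2 pairs of miR-223-3p and miR-142-3p with miR-342-3p, at -0.30 and -0.65.

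The opposite arms of the members were uninformative. The array held 6 of them, miR-146a-3p, miR-146b-3p, miR-150-3p, miR-155-3p, miR-223-5p and miR-342-5p, and 0 of 6 were detected on any array. Other miRNAs linked to leukocytes were described from a list of 10, of which 5 could be tested. In the limma fit of all arrays 0 of 5 passed the adjusted p in either direction, and the median log2 change was 0.15. At an unadjusted p under 0.05 there were 3 of 5, miR-125a-5p and miR-27a-3p higher and miR-511-3p lower, beside 28.9% of the 166 in either direction. Without CCl4 replicate 3, 3 of 5 were higher, miR-27a-3p by 0.86 (adjusted p = 0.0028), miR-125a-5p by 0.68 (adjusted p = 0.023) and miR-21a-5p by 0.47 (adjusted p = 0.0018), and none was lower, beside 18.7% of the 166 miRNAs higher and 33.7% lower. These miRNAs are also made by cells other than leukocytes. Of the 5 that could not be tested, miR-132-3p (7.13 to 82.0) and miR-181a-5p (lowest 5.31) were detected in the CCl4 group alone, and there in all livers, highest on replicate 3. miR-181b-5p was detected only on CCl4 replicate 3, and miR-511-5p and miR-147-3p nowhere. miR-511-3p, which is encoded within the macrophage mannose receptor gene Mrc1, had total signals of 14.3, 13.0 and 15.2 in the corn oil livers and 14.1, 16.9 and 8.98 in the CCl4-treated livers. Its unnormalized groups overlapped, unlike those of miR-142-3p and miR-223-3p. After quantile normalization its log2 change was -1.05 (limma adjusted p = 0.170), or -0.61 (limma adjusted p = 0.061) without CCl4 replicate 3.

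Markers of other liver cells were summed on each array in the same unnormalized units. The summed total signal of the 8 members was 101 to 119 in the corn oil livers and 586, 434 and 700 in the CCl4-treated livers. The 4 hepatocyte miRNAs, led by miR-122-5p, summed to between 18908 and 20803 in the corn oil group and to 14923, 17695 and 2750 in the CCl4 group, lowest on replicate 3. The 5 stellate and mesenchymal miRNAs summed to 60.1 to 97.8 and to 518, 215 and 967. Of the 3 tested, 1 was called, beside 7.23% of the 166 miRNAs called higher. It was miR-199a-5p, at a log2 change of 1.34 (limma adjusted p = 0.032). The 2 endothelial miRNAs summed to 563 to 677 and to 824, 821 and 3732. The red cell miRNAs, of which 2 of 3 were on the array under the listed names, summed to 466 to 754 and to 730, 315 and 2135. Of all these markers, miR-145a-5p alone was undetected throughout the corn oil group. In CCl4 replicates 1, 2 and 3 the red cell sum was inside, below and above its corn oil range. The leukocyte sum was above its own corn oil range in each of them, as were the stellate and mesenchymal sum and the endothelial sum. Only detected miRNAs were added, so miR-150-5p, miR-146b-5p and miR-155-5p gave nothing to the corn oil sums. In the limma fit of all arrays, 0 of 4 hepatocyte, 0 of 2 endothelial and 0 of 2 red cell miRNAs passed the adjusted p. None of these 8 passed an unadjusted p under 0.05, beside 28.9% of the 166 miRNAs. When CCl4 replicate 3 was left out, 2 of 4 hepatocyte miRNAs were lower, beside 33.7% of the 166 miRNAs. The 2 were miR-192-5p and miR-148a-3p (limma adjusted p = 0.023 and 0.046). Quantile normalization gives miRNAs of equal rank the same value. miR-122-5p kept its rank on all arrays but CCl4 replicate 3, so no change of it could show without that array. With 75th percentile scaling the 4 hepatocyte miRNAs had log2 changes of -2.36 to -1.32, beside a median of -0.16 over the 166. Without CCl4 replicate 3 these were -1.03 to -0.64, beside -0.19. The part of these cells in the changes of the leukocyte miRNAs was not tested.

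Likeness of pattern was measured as the root mean square difference of centered normalized log2 values over the 6 arrays. The nearest miRNA to miR-223-3p was miR-2137, at 0.24, followed by miR-3072-5p at 0.38 and miR-467f at 0.55. The nearest to miR-342-3p were miR-3072-5p at 0.20, let-7i-5p at 0.23 and miR-3473a at 0.28, and those to miR-142-3p were miR-3473b at 0.28, miR-5622-3p at 0.29 and miR-3072-5p at 0.32. Among the members themselves, miR-142-3p and miR-223-3p were nearest to each other at 0.40, and miR-146a-5p and miR-223-3p were farthest apart at 0.77. For miR-146a-5p the nearest were miR-3963 and miR-6366 at 0.11, and miR-340-5p at 0.13. miR-3963 and miR-6366 each had the same normalized value on all 6 arrays. The 0.11 is therefore the spread of miR-146a-5p itself and shows no likeness of pattern.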

How the data were processed

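Liver total RNA of 6 mice was profiled on single-color Agilent mouse miRNA arrays. The authors deposited the scanner output of Feature Extraction 11.0.1.1, from which the total signal per miRNA was used, an intensity on a linear scale with background subtracted. It adds only the probes that the software detected, and an undetected miRNA is set to 0.1. Each leukocyte miRNA had 2 probes of 20 spots, and no spot was saturated. The authors also deposited quantile-normalized values of 111 miRNAs, which held 2 of the 8. These served as an alternative. All 111 were among the 166 miRNAs of the filter below, which kept 55 more, so that filter is not exactly the authors' own.

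Following the study's methods, miRNAs flagged as detected on all 6 arrays (166 of 1247) were log2 transformed and quantile normalized. Treatment was the single term of the linear model, fitted in limma 3.58.1 (R 4.3.3; lmFit, eBayes). All 166 entered the fit and the p-value adjustment. Ratios were tested with scipy 1.17.1. The software's flags for detection and for spots well above background were used as deposited. The fit was tested on simulated data with equal noise in both groups, no outlying array and no shift between arrays. That test does not cover an array like CCl4 replicate 3.

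The members, roles, lists and tests were chosen with earlier results of these data known. All 8 members are named, with the opposite arms, 10 other leukocyte miRNAs, cell type markers and the 3 nearest patterns of each tested member. The bound for a dim miRNA sets its CCl4 mean against the higher, per corn oil array, of its measured signal and the dimmest miRNA with over 50% of a probe's spots well above background. For miR-142-5p the higher was its measured signal, so its value is a ratio and not a bound. Of the alternatives, 5 were chosen after seeing the data. The array header names mm9, whereas coordinates and sequences are from RefSeq (GRCm38.p6). The precision is limited by the number of arrays.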

Additional observations from a re-analysis of the deposited data

Results flagged for a closer look

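The leukocyte miRNAs outside the fit were detected on more CCl4 arrays than corn oil arrays. The CCl4 arrays also had more detected miRNAs of any kind. miR-142-5p was detected on 3 of 3 CCl4 arrays and 1 of 3 corn oil arrays, and miR-146b-5p and miR-150-5p each on 3 of 3 CCl4 arrays and 0 of 3 corn oil arrays. Of all miRNAs of the array, 3.29% were detected on all CCl4 arrays but not on all corn oil arrays. Detection on all CCl4 arrays and no corn oil array held for 1.76%. miR-155-5p was detected on 1 of 3 CCl4 arrays and 0 of 3 corn oil arrays, a pattern whose share over the array was not taken. Groups of 3 are too small for the test of single outlying samples, so none was made.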

How the results depend on the processing

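The number of leukocyte miRNAs called, 0 of 4, depended on the scaling and on CCl4 replicate 3. It was 1 with 75th percentile scaling (miR-342-3p), 3 without normalization, 1 of 7 when detection on all arrays of at least 1 group was enough (miR-142-5p, which passed that filter only through the CCl4 group, so that its call supports nothing) and 1 of 2 in the deposited values (miR-342-3p). With 1 array left out at a time it was 0 to 1. The following were chosen after seeing the data, all without CCl4 replicate 3: 75th percentile scaling called 3, no normalization called 3, and the filter on at least 1 group called 2 of 7 (miR-223-3p and again miR-142-5p). The other 12 of 20 alternatives called 0.

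The change of miR-142-3p was called at 2.03 without normalization, and without CCl4 replicate 3 at 1.37 (75th percentile) and 2.01 (no normalization). miR-223-3p was called at 2.54 without normalization, and without CCl4 replicate 3 at 1.75 (quantile), 1.91 (75th percentile), 2.55 (no normalization) and 1.77 (filter on at least 1 group). miR-342-3p was called at 1.11 (75th percentile), 2.26 (no normalization) and 1.18 (deposited), and without CCl4 replicate 3 at 1.17 (75th percentile) and 1.81 (no normalization). The unnormalized values hold the shift of all miRNAs by 0.99, or 0.45 without that array. The causes were not tested. Leaving out 1 array at a time gave 0.17 to 0.97 for miR-142-3p, 0.90 to 1.75 for miR-223-3p and 0.81 to 0.91 for miR-342-3p, whose limma adjusted p then ran from 0.0026 (without CCl4 replicate 3) to 0.086 and was above 0.05 with any 1 corn oil array or CCl4 replicate 1 left out. It was also above 0.05 with quantile normalization before the filter (0.090) and with no filter (0.389), at a change of 0.65 in both.

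The change of miR-146a-5p turned to -0.31 with quantile normalization before the filter and with no filter, -0.067 with the filter on at least 1 group, -0.079 with normexp, -0.12 with all probe signals summed, -0.21 with those sums and the filter on at least 1 group and -0.011 with that filter and no CCl4 replicate 3. With 1 array left out it ran from -0.014 to 0.11. It was called in none of these settings. The ratio of miR-142-3p to miR-342-3p turned from -0.23 to 0.20 without CCl4 replicate 3, and with 1 array left out at a time ran from -0.51 to 0.20. The ratio of miR-223-3p to miR-342-3p, CCl4 minus corn oil, ran from 0.03 to 0.74. The planned comparison of miR-223-3p with miR-150-5p and its alternatives had no value, because miR-150-5p was undetected in the corn oil group.

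With the replicate number as a block, 0 of 4 were called and the limma adjusted p was 0.090 for miR-342-3p and 0.241 for miR-223-3p. Over the 166 miRNAs the block moved the count at the adjusted p from 22 to 6. Same-numbered arrays correlated at -0.18, 0.11 and 0.03 in their deviations from the group means, and differently numbered arrays at -0.272 to 0.241. With 3 arrays per group these values cannot decide whether the numbers mark pairs. In the deposited table corn oil columns 1, 2 and 3 had the ranks of arrays 2, 3 and 1, which leaves the corn oil numbering in doubt, and in that order the correlations were -0.071, -0.272 and -0.006. Dim signals limit miR-142-5p, miR-150-5p, miR-146b-5p and miR-155-5p.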
